A study of Mus musculus with 16 samples.

Results

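A set of 10 genes from 2 feedback systems on inflammatory signalling were followed in mouse Paneth cells, the antimicrobial secretory cells at the base of the crypts of the small intestine. They are 6 dual-specificity phosphatases (Dusp1, Dusp4, Dusp5, Dusp6, Dusp10 and Dusp16), the kinase Map3k8, and the 3 mRNA-decay genes Zfp36, Zfp36l1 and Zfp36l2. They were chosen by name, with earlier results of these data known, and are 10 of the 55414 genes in the deposited count table. All 10 passed the filter on low counts that left 11809 genes to be tested.

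Mitogen-activated protein kinases (MAPKs), namely ERK, JNK and p38, carry signals from cytokine receptors to transcription factors. Dual-specificity phosphatases switch these kinases off by removing phosphate from both the threonine and the tyrosine of their activation loop, and many of their genes are themselves induced by MAPK signalling. MAP3K8, also called TPL2, lies at the other end of the cascade and links the IKK complex to the kinases that activate ERK. ZFP36 proteins act on the output: they bind AU-rich elements in the 3' untranslated region (3' UTR) of short-lived cytokine mRNAs and recruit deadenylases that start their decay. Dusp1 and Zfp36 are known in many cells as genes that both inflammatory signals and glucocorticoids can induce.

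C57BL/6J mice, with no genetic change named, received DEX or its vehicle PBS and, 1 h after that, tumour necrosis factor (TNF) or PBS. Paneth cells were sorted from the small intestine 3 h after the second injection, so the DEX groups had 4 h of exposure to DEX. The groups are written with the earlier injection in front and hold 4 libraries each: PBS+PBS as the control, DEX+PBS, PBS+TNF, and the doubly treated DEX+TNF. DEX usually stands for dexamethasone, a synthetic glucocorticoid, but is not spelled out in the sources used here. Doses are not given there either.

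Library totals ran from 7286307 to 15832111 counts. In every library the 6 Paneth cell markers summed to between 407600 and 609500 CPM (counts scaled to the library total). The 9 immune markers summed to 25.7 to 106 CPM, with Lyz2 at 23.9 to 106.1 and Cd3e at 0 in all 16 libraries. In DEX+TNF 4 the leukocyte gene Ptprc made up 31.5 of a sum of 64.6 CPM. Markers of other epithelial cells reached higher sums: 1272 to 9317 CPM for 5 goblet cell markers, 208 to 1825 for 4 stem cell markers and 0.165 to 750.5 for 4 tuft cell markers. DEX+TNF libraries 3 and 4 stood apart from DEX+TNF 1 and 2: Nfkbia, the feedback inhibitor of NF-kB, was at 330.0 and 381.8 normalized CPM in libraries 1 and 2 and at 28.3 and 41.0 in libraries 3 and 4, against 276.6 to 337.3 in PBS+TNF and 19.5 to 27.3 in DEX+PBS. Normalized CPM here means CPM after scaling by trimmed mean of M-values (TMM) factors. Values of the TNF-raised members and of Dusp6 in DEX+TNF are therefore given for the single libraries. In bulk RNA, fewer cells of a type and less RNA per cell cannot be told apart.

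TNF without DEX changed most of these genes: 6 members rose (Dusp10, Dusp1, Zfp36, Map3k8, Dusp4 and Dusp16) and 1 fell (Dusp6), while Dusp5, Zfp36l1 and Zfp36l2 did not pass the test. Thus 7 of the 10 members were called at an adjusted p under 0.05 by the quasi-likelihood test of edgeR, where 12.5% of all tested genes were. The 4 PBS+TNF libraries did not overlap the 4 PBS+PBS libraries for these same 7 members, against 19.5% of all tested genes. The median log2 fold change of the 10 members was 1.49, beside -0.03 over all tested genes. Because the members were chosen with earlier results of these data known, these contrasts with all genes are descriptions.

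**Figure D1:**
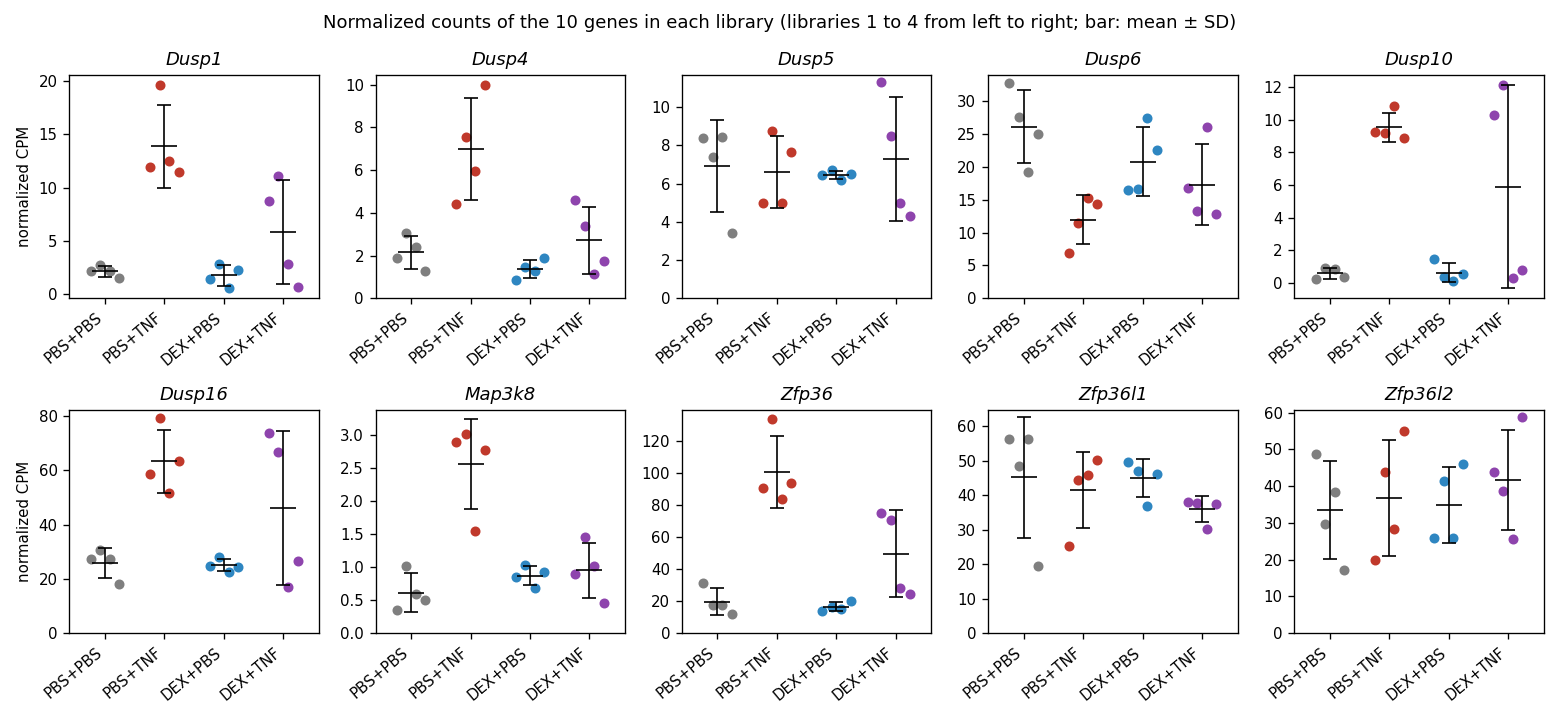
Normalized CPM of each of the 10 genes in the 16 libraries (points, libraries 1 to 4 of a group from left to right), with the mean and SD of each group as bars; every panel has its own linear axis. Dusp1, Dusp4, Dusp10, Dusp16, Map3k8 and Zfp36 lie higher in all PBS+TNF libraries than in any PBS+PBS library and Dusp6 lies lower, and the DEX+TNF points of Dusp10 split into 10.3 and 12.1 against 0.306 and 0.798.

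Of the phosphatases, Dusp10 (ENSMUSG00000039384, chromosome 1, 183745499 to 183807842, plus strand, GRCm39), which acts mainly on JNK and p38, had the largest change. In PBS+PBS libraries 1 to 4 it stood at 0.257, 0.894, 0.854 and 0.377 normalized CPM. In PBS+TNF libraries 1 to 4 it stood at 9.25, 9.16, 10.8 and 8.86. The gene thus went from very few reads, 3 to 16 per PBS+PBS library, to a level with little spread between libraries. The fitted change on the log2 scale was 3.91 (SE 0.87, adjusted p = 0.00777 in edgeR), about 15.01-fold.

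Dusp1 (ENSMUSG00000024190, chromosome 17, 26724564 to 26781102, minus strand) encodes the nuclear phosphatase MKP-1, an early-response gene that dephosphorylates p38, JNK and ERK. Its level was 2.14, 2.75, 2.19 and 1.51 normalized CPM in PBS+PBS and 11.9, 19.7, 12.5 and 11.4 in PBS+TNF. All PBS+TNF libraries were higher, PBS+TNF 2 most of all. This was a log2 change of 2.68 (SE 0.60, adjusted p = 0.00808 in edgeR), about 6.39-fold. Part of the annotated span of Dusp1 lies across Ergic1 on the opposite strand, which had 47715 counts over all libraries against 1313 for Dusp1. The library kit keeps strand, but whether the counting used it is not stated, so reads of Ergic1 in the Dusp1 counts cannot be told apart.

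Dusp4 and Dusp5 encode the other nuclear, inducible phosphatases of the set. Dusp4 (ENSMUSG00000031530, chromosome 8, 35274442 to 35287048, plus strand) was at 1.89, 3.06, 2.40 and 1.26 normalized CPM in PBS+PBS and at 4.43, 7.54, 5.98 and 10 in PBS+TNF. The groups did not overlap, although PBS+TNF 1 lay close to PBS+PBS 2. On the log2 scale the change was 1.69 (SE 0.42, adjusted p = 0.0143 in edgeR), and without PBS+TNF 4 the adjusted p was 0.0514. Dusp5 (ENSMUSG00000034765, chromosome 19, 53517532 to 53530862, plus strand), which is selective for ERK, showed no such step. Its range was 3.39 to 8.44 normalized CPM in PBS+PBS and 4.99 to 8.74 in PBS+TNF, with a log2 fold change of -0.06 (SE 0.33, adjusted p = 0.942 in edgeR).

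Dusp16 (ENSMUSG00000030203, chromosome 6, 134692431 to 134784241, minus strand) encodes MKP-7, which acts on JNK and p38 in the cytoplasm. It was at 27.2, 30.8, 27.5 and 17.96 normalized CPM in PBS+PBS and at 58.6, 79.3, 51.8 and 63.5 in PBS+TNF. Every PBS+TNF library was well above every PBS+PBS library. The fitted change on the log2 scale was 1.29 (SE 0.35, adjusted p = 0.0227 in edgeR). This call was the least steady of the 7: the adjusted p was 0.0561 without PBS+PBS 1, 0.0535 without PBS+PBS 4 and 0.0645 without PBS+TNF 2.

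Dusp6 (ENSMUSG00000019960, chromosome 10, 99086564 to 99103361, plus strand) moved the other way. It encodes MKP-3, the cytoplasmic phosphatase that is specific for ERK and whose mRNA is widely read as a gauge of ERK activity. Levels were 32.7, 27.6, 19.2 and 25 normalized CPM in PBS+PBS and 6.94, 11.4, 15.3 and 14.3 in PBS+TNF. The lowest PBS+PBS library was thus above the highest PBS+TNF library. This was a log2 change of -1.11 (SE 0.28, adjusted p = 0.0164 in edgeR), and without PBS+PBS 1 the adjusted p was 0.0578.

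Map3k8 (ENSMUSG00000024235, chromosome 18, 4331327 to 4353463, minus strand) was the member with the fewest reads, 274 over all libraries and 4 to 56 in each. It was at 0.343, 1.02, 0.587 and 0.502 normalized CPM in PBS+PBS and at 2.89, 3.01, 1.55 and 2.77 in PBS+TNF. The groups did not overlap, with PBS+TNF 3 the lowest of its group. On the log2 scale the change was 2.02 (SE 0.47, adjusted p = 0.0103 in edgeR), about 4.04-fold. With so few reads, counting error is a large part of the spread for Map3k8.

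Zfp36 (ENSMUSG00000044786, chromosome 7, 28076209 to 28079710, minus strand) encodes tristetraprolin, the founding member of its family. Its level was 31.5, 17.8, 17.7 and 12.1 normalized CPM in PBS+PBS and 90.7, 133.7, 83.9 and 93.7 in PBS+TNF. All PBS+TNF libraries were far above the PBS+PBS libraries. The fitted change on the log2 scale was 2.34 (SE 0.37, adjusted p = 0.00117 in edgeR), about 5.08-fold, and it had the lowest adjusted p of the 10 members.

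The paralogs of Zfp36 did not follow it. Zfp36l1 (ENSMUSG00000021127, chromosome 12, 80154528 to 80160006, minus strand) ranged from 19.5 to 56.4 normalized CPM in PBS+PBS and from 25.2 to 50.1 in PBS+TNF, a log2 fold change of -0.12 (SE 0.28, adjusted p = 0.846 in edgeR). Zfp36l2 (ENSMUSG00000045817, chromosome 17, 84491132 to 84495382, minus strand) ranged from 17.2 to 48.7 and from 19.8 to 55.1, a log2 fold change of 0.14 (SE 0.35, adjusted p = 0.867 in edgeR). In both genes the groups overlapped over most of their range, and PBS+PBS 4 and PBS+TNF 1, which had the lowest scaling factors of all libraries (0.503 and 0.418), were the lowest of their groups. PBS+PBS 4 was also the lowest PBS+PBS library for Dusp1, Dusp4, Dusp5, Dusp16 and Zfp36, but not for Dusp6, Dusp10 and Map3k8. PBS+TNF 1 was also the lowest PBS+TNF library for Dusp4 and Dusp6, but not for Dusp1, Dusp5, Dusp10, Dusp16, Map3k8 and Zfp36. The part of the scaling in these low values was not tested.

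Because the 3 paralogs differ in level, their make-up was compared per kb of exon. Zfp36 made up 20.2% ± 4.17 (SD, n = 4) of the summed level of the 3 genes in PBS+PBS and 56.4% ± 8.52 (SD, n = 4) in PBS+TNF. The single libraries lay between 15.4% and 24.4% in PBS+PBS and between 46.9% and 66.4% in PBS+TNF. Per kb, the order in PBS+PBS was Zfp36l1 (14.1 ± 5.46 normalized CPM per kb, SD, n = 4), Zfp36l2 (8.91 ± 3.55) and Zfp36 (5.64 ± 2.37), and neighbours in that order overlapped in range. With TNF the order was Zfp36 (28.7 ± 6.42), Zfp36l1 (12.9 ± 3.44) and Zfp36l2 (9.76 ± 4.18), and all Zfp36 values were above those of its paralogs. The exon union of Zfp36, 3502 bases, covers its whole annotated span, intron included, which is not so for its paralogs. Its level and share per kb may therefore be understated, and its place in the PBS+PBS order rests on that length. By counts, not scaled to length, the mean share of Zfp36 was 20.5% in PBS+PBS and 56.8% in PBS+TNF.

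A like shift appeared among the 6 phosphatases. Dusp6 made up 52.0% ± 9.29 (SD, n = 4) of their summed level per kb in PBS+PBS and 16.4% ± 4.98 in PBS+TNF. Dusp16 went from 19.6% ± 2.54 to 33.4% ± 3.88, Dusp1 from 4.32% ± 0.634 to 19.4% ± 3.31 and Dusp10 from 0.668% ± 0.351 to 7.47% ± 1.60. For each of these 4 genes the PBS+PBS and PBS+TNF shares did not overlap. On this per-kb scale Dusp6 was the largest part in every PBS+PBS library. By counts, which are not scaled to length, the PBS+PBS means were 41.4% for Dusp6 and 40.4% for Dusp16, and the PBS+TNF means were 56.3% for Dusp16, 12.3% for Dusp1 and 10.8% for Dusp6. These shares are descriptions, since they restate the changes of the single genes.

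**Figure D2:**
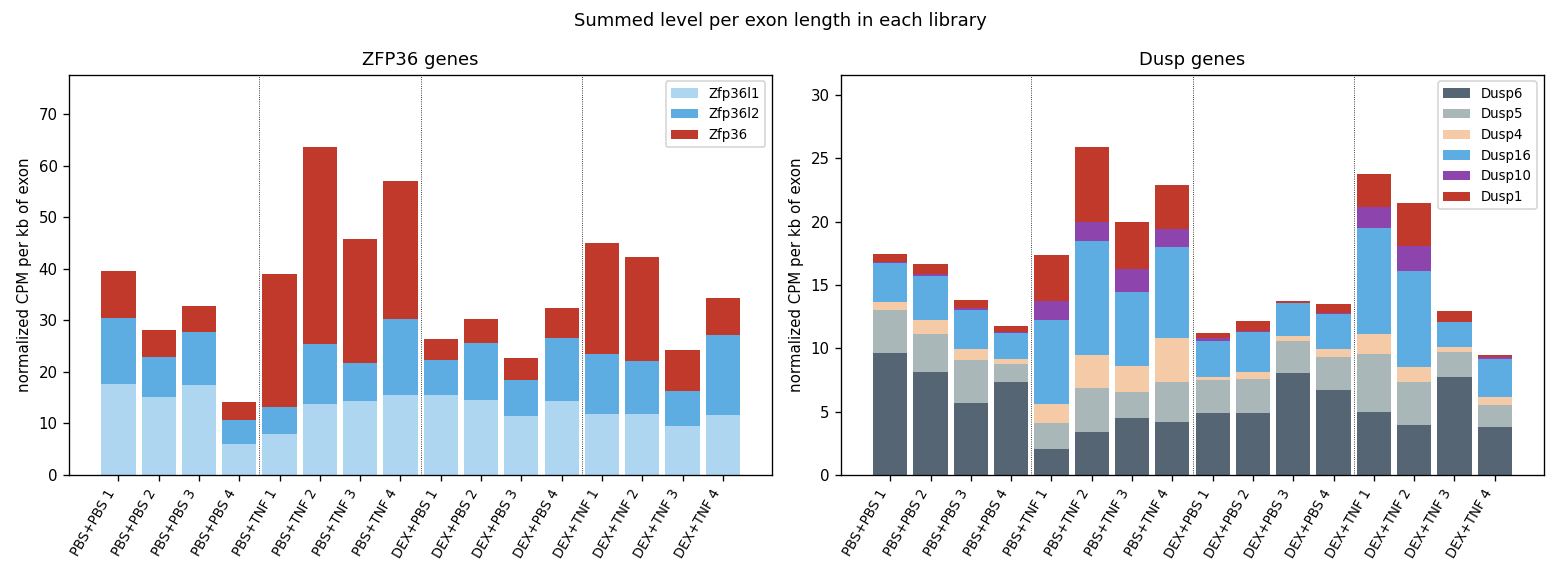
Stacked bars of normalized CPM per kb of exon in each of the 16 libraries, for the 3 ZFP36 genes (left) and the 6 phosphatases (right), on linear axes from 0. The Zfp36 segment takes 46.9% to 66.4% of its stack in the PBS+TNF libraries and 15.4% to 24.4% in the PBS+PBS libraries, and the Dusp6 segment is the largest of its stack in all 4 PBS+PBS libraries.

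The mRNAs of the ZFP36 family themselves can carry the element that their proteins bind, so the 3' UTRs of the canonical transcripts (GENCODE M39) were searched on the transcript strand for the core heptamer TATTTAT and for the nonamer TTATTTATT that contains it. Dusp1, Zfp36, Zfp36l1 and Zfp36l2 each held 3 heptamers, and the other 6 members held 0. Over 11135 tested protein-coding genes with a 3' UTR, 32.9% held a heptamer, 8.99% a nonamer and 11.8% at least 2 heptamers. Among the 4711 of them with a 3' UTR of 690 to 2416 bases, the range of the members, the shares were 31.4%, 7.45% and 8.6%. The 5 nonamer sites of the members are shown because they set these 4 mRNAs apart from the other 6. All lie in the 3' UTR of the last exon, on the minus strand of GRCm39, and are written 5' to 3' as DNA with the heptamer in capitals.
Dusp1 at chr17:26725135-26725159: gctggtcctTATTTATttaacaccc
Dusp1 at chr17:26724846-26724870: ttttaccttTATTTATttttgtgta
Zfp36 at chr7:28076378-28076402: tgacgacttTATTTATtgtattaag
Zfp36l1 at chr12:80154943-80154967: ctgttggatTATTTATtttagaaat
Zfp36l2 at chr17:84492344-84492368: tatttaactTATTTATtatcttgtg

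Presence of the element did not sort the members by their TNF response. Of the 4 genes with it, Dusp1 and Zfp36 rose while Zfp36l1 and Zfp36l2 did not pass the test. Of the 6 without it, Dusp4, Dusp10, Dusp16 and Map3k8 rose, Dusp6 fell and Dusp5 did not pass. A match of letters is not evidence that a protein binds there.

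The 250 bases before the canonical start of each gene were searched on both strands for motifs of factors that act downstream of TNF, MAPKs or glucocorticoids. A cyclic AMP response element (TGACGTCA) was found before Dusp1 alone among the members and in 2.16% of 11214 promoters. Its core TGACG, which the full element contains, was found before Dusp1, Dusp4, Dusp5 and Zfp36l2 and in 24.1% of promoters. The CArG box, the motif of serum response factor, was found before Dusp5, with 2 matches, and in 1.19% of promoters. The NF-kB motif was found before Zfp36l1 and in 8.34% of promoters, and the glucocorticoid response element (0.187% of promoters) and the AP-1 motif (3.06%) before none of the 10. Sites farther from the start were not searched. G and C made up 39.2% of the Zfp36 window and 53.6% to 82.4% of those of the other members. Whether Paneth cells use the annotated start of Zfp36 was not tested. The windows around the rarest matches are shown with the matches in capitals, 112 to 73 bases before the start of Dusp1 (minus strand) and 54 to 3 bases before that of Dusp5 (plus strand), on GRCm39.
Dusp1 at chr17:26727566-26727605: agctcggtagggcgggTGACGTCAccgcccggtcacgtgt
Dusp5 at chr19:53517478-53517529: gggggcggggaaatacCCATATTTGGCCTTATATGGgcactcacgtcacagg

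DEX without TNF left no detectable mark on these genes at 4 h. None of the 10 members was called by edgeR in DEX+PBS against PBS+PBS, beside 0.00847% of all tested genes, and 0 had an unadjusted p under 0.05. DESeq2 called 0 of them too. For 0 members did the groups not overlap, against 1.88% of all tested genes. Log2 fold changes ran from -0.65 (SE 0.43) for Dusp4 to 0.49 (SE 0.48) for Map3k8, with an adjusted p in edgeR of 1 for each.

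Dusp1 and Zfp36, the members best known as glucocorticoid-inducible, had lower means in DEX+PBS than in PBS+PBS, by less than the spread between libraries. Dusp1 was at 1.46, 2.83, 0.573 and 2.24 normalized CPM in DEX+PBS, a log2 fold change of -0.24 (SE 0.60, adjusted p = 1 in edgeR). Zfp36 was at 14.0, 16.5, 15 and 20.3, a log2 fold change of -0.26 (SE 0.35, adjusted p = 1 in edgeR). Both ranges overlapped those of PBS+PBS. The make-up of the families was close as well, with Zfp36 at 16.9% ± 1.82 (SD, n = 4) of the 3 ZFP36 genes per kb and Dusp6 at 47.9% ± 8.15 of the 6 phosphatases.

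In mice given TNF, DEX pretreatment came with a lower mean level of each TNF-raised member. However, 0 of the 10 members passed the edgeR test in DEX+TNF against PBS+TNF, beside 0.339% of all tested genes called. Dusp1, Map3k8 and Zfp36 were lower in all 4 DEX+TNF libraries than in any PBS+TNF library, 3 of 10 members against 6.38% of all tested genes without overlap. An unadjusted p under 0.05 was found for 4 members, namely these 3 and Dusp4. The DEX+TNF group held 2 libraries with Nfkbia at the PBS+TNF level and 2 with Nfkbia near the DEX+PBS level.

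Map3k8 showed the largest fitted difference, close to that of Dusp4 (log2 fold change -1.37, SE 0.42). Map3k8 was at 0.887, 1.46, 1.02 and 0.449 normalized CPM in DEX+TNF, against 1.55 to 3.01 in PBS+TNF and 0.687 to 1.02 in DEX+PBS. All 4 DEX+TNF libraries, those with a high Nfkbia level included, were thus below the PBS+TNF range. The margin was small and rested on few reads, 18 in DEX+TNF 2 (1.46) and 22 in PBS+TNF 3 (1.55). The log2 change of Map3k8 was -1.43 (SE 0.46, adjusted p = 0.196 in edgeR), and it was -1.11 (adjusted p = 0.504 in edgeR) with DEX+TNF 3 and 4 left out.

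Zfp36 was at 75.1, 71.0, 28.3 and 24.6 normalized CPM in DEX+TNF libraries 1 to 4. Every library lay between the groups, below the PBS+TNF range of 83.9 to 133.7 and above the DEX+PBS range of 14.0 to 20.3. The log2 fold change against PBS+TNF was -1.02 (SE 0.35, adjusted p = 0.230 in edgeR), and -0.46 (adjusted p = 0.587 in edgeR) with DEX+TNF 3 and 4 left out. Its share of the 3 ZFP36 genes per kb was 47.7% and 47.9% in DEX+TNF 1 and 2, within the PBS+TNF range, and 33.2% and 20.5% in DEX+TNF 3 and 4.

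Dusp1 was at 8.71, 11.1, 2.86 and 0.698 normalized CPM in DEX+TNF, all below the lowest PBS+TNF value of 11.4, the second by a small margin. On the log2 scale the change was -1.26 (SE 0.56, adjusted p = 0.381 in edgeR). Dusp4, at 4.60, 3.40, 1.12 and 1.75, overlapped PBS+TNF through DEX+TNF 1. Its log2 fold change was -1.37 (SE 0.42, adjusted p = 0.170 in edgeR), and it was the only member that DESeq2 called in this comparison, with an adjusted p of 0.0463. With DEX+TNF 3 and 4 left out the log2 values were -0.49 for Dusp1 and -0.82 for Dusp4.

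Dusp10 and Dusp16 split cleanly by library. Dusp10 was at 10.3 and 12.1 normalized CPM in DEX+TNF 1 and 2, within or above the PBS+TNF range, and at 0.306 and 0.798 in DEX+TNF 3 and 4, within the DEX+PBS range. Dusp16 was at 73.7 and 66.9 in DEX+TNF 1 and 2, within the PBS+TNF range, and at 17.1 and 26.7 in DEX+TNF 3 and 4. The group means therefore describe no single library, and the log2 fold changes were -0.70 (SE 0.74, adjusted p = 0.763 in edgeR) and -0.46 (SE 0.35, adjusted p = 0.646 in edgeR). With DEX+TNF 3 and 4 left out both values turned positive, 0.24 and 0.15.

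**Figure D3:**
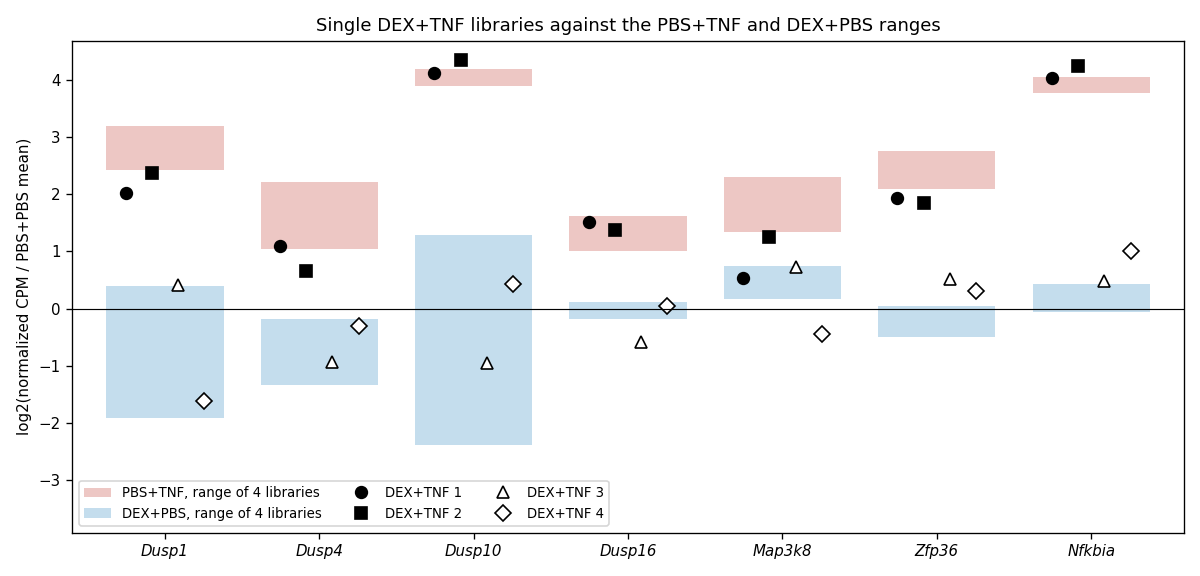
Level of the 6 TNF-raised members and of Nfkbia in the single DEX+TNF libraries (symbols), as log2 of the ratio to the PBS+PBS mean, against the range of the 4 PBS+TNF libraries (red bands) and of the 4 DEX+PBS libraries (blue bands). DEX+TNF 1 and 2 lie in or near the red bands for the members other than Map3k8, which has all 4 libraries below its red band, and DEX+TNF 3 and 4 lie in or near the blue bands.

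Counted over the 6 TNF-raised members, DEX+TNF 1 was above the DEX+PBS range for 5 and reached the PBS+TNF range for 3. DEX+TNF 2 was above the DEX+PBS range for 6 and reached the PBS+TNF range for 2. DEX+TNF 3 and 4 were above the DEX+PBS range for 2 and 1 members and reached the PBS+TNF range for 0. Markers of other cells moved with this split in part: the 4 tuft cell markers, all tested, summed to 0.782 and 0.165 plain CPM in DEX+TNF 1 and 2, to 103 in DEX+TNF 3 and to 750.5 in DEX+TNF 4. They summed to 16.3 to 98.4 in DEX+PBS and to 4.69 to 148.5 in PBS+TNF. The 5 enteroendocrine markers, 2 of them tested, summed to 0.0869, 0, 12.0 and 17.3 in DEX+TNF 1 to 4, with a highest value of 13.4 in DEX+PBS and 5.14 in PBS+TNF. Of the 9 immune markers, Ptprc, which encodes the leukocyte antigen CD45, was at 0, 0, 4.39 and 31.5 plain CPM in DEX+TNF 1 to 4. Its highest value was 5.64 in PBS+TNF, 3.29 in DEX+PBS and 1.12 in PBS+PBS. The sum of the 9, which includes Lyz2, did not follow the split, at 76.5, 73.0, 73.2 and 64.6 plain CPM in DEX+TNF 1 to 4. Cd68 (0.896), Csf1r (0.746), Laptm5 (0.896) and Coro1a (0.448) also had their highest value in DEX+TNF. Cd79a (0.214) and Cd52 (0.227) had theirs in PBS+TNF and Lyz2 (106.1) in PBS+PBS. The 5 goblet cell markers were lower in DEX+TNF 3 and 4, at 1939 and 3388, than in DEX+TNF 1 and 2, at 4176 and 5974. Enterocyte markers (5 of 6 tested) reached 400.3 plain CPM in DEX+TNF 4, against a highest value of 116.3 in PBS+PBS. Stem cell markers (4 of 4 tested) reached 1825 in DEX+TNF 4, of which Olfm4 was 1676, against a highest value of 1192 in PBS+TNF. Olfm4 and Ascl2 (9.70) had their highest value in DEX+TNF, but Lgr5 (47.8) and Smoc2 (120) had theirs in PBS+PBS. Their part in the member values was not tested.

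Dusp6 ran against the others here too, in value if not in test. It was at 16.9, 13.3, 26.1 and 12.9 normalized CPM in DEX+TNF, against 6.94 to 15.3 in PBS+TNF. Of these, 2 libraries were above that range and 2 within it. The fitted change on the log2 scale was 0.51 (SE 0.28, adjusted p = 0.505 in edgeR). In the DEX+TNF libraries Dusp5 was at 4.29 to 11.3 normalized CPM, Zfp36l1 at 30.3 to 38.2 and Zfp36l2 at 25.5 to 58.7. Dusp5, Zfp36l1 and Zfp36l2 had log2 fold changes of 0.12, -0.21 and 0.18, with adjusted p in edgeR of 0.926, 0.821 and 0.890 and overlapping groups.

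The response to TNF after DEX, DEX+TNF against DEX+PBS, had 0 members called by edgeR, beside 0.339% of all tested genes, and 5 members with an unadjusted p under 0.05 (Dusp1, Dusp4, Dusp10, Dusp16 and Zfp36). Zfp36 was higher in all DEX+TNF libraries than in any DEX+PBS library, 1 of 10 members against 4.68% of all tested genes without overlap. Its log2 fold change was 1.59 (SE 0.36, adjusted p = 0.0773 in edgeR). Dusp10 had 3.29 (SE 0.87, adjusted p = 0.126 in edgeR) and Dusp1 1.65 (SE 0.59, adjusted p = 0.280 in edgeR). DESeq2 called Dusp10 and Zfp36.

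These values depend on DEX+TNF 3 and 4. Without DEX+TNF 3, edgeR called Dusp10, Dusp16 and Zfp36, and without DEX+TNF 4 it called Dusp1, Dusp10 and Zfp36. With both left out, 5 members were called, with log2 fold changes of 4.24 for Dusp10 (adjusted p = 3.675e-05 in edgeR), 2.41 for Dusp1 (0.000763), 2.15 for Zfp36 (0.00015), 1.51 for Dusp4 (0.0264) and 1.49 for Dusp16 (0.000364). The lone exception among the TNF-raised members was Map3k8, with 0.10 (SE 0.47, adjusted p = 0.991 in edgeR) over all libraries and 0.41 (adjusted p = 0.666 in edgeR) with both left out. Leaving out these libraries was decided with their low Nfkbia level known, and the 2 that stay are assumed to vary like the other groups.

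**Figure D4:**
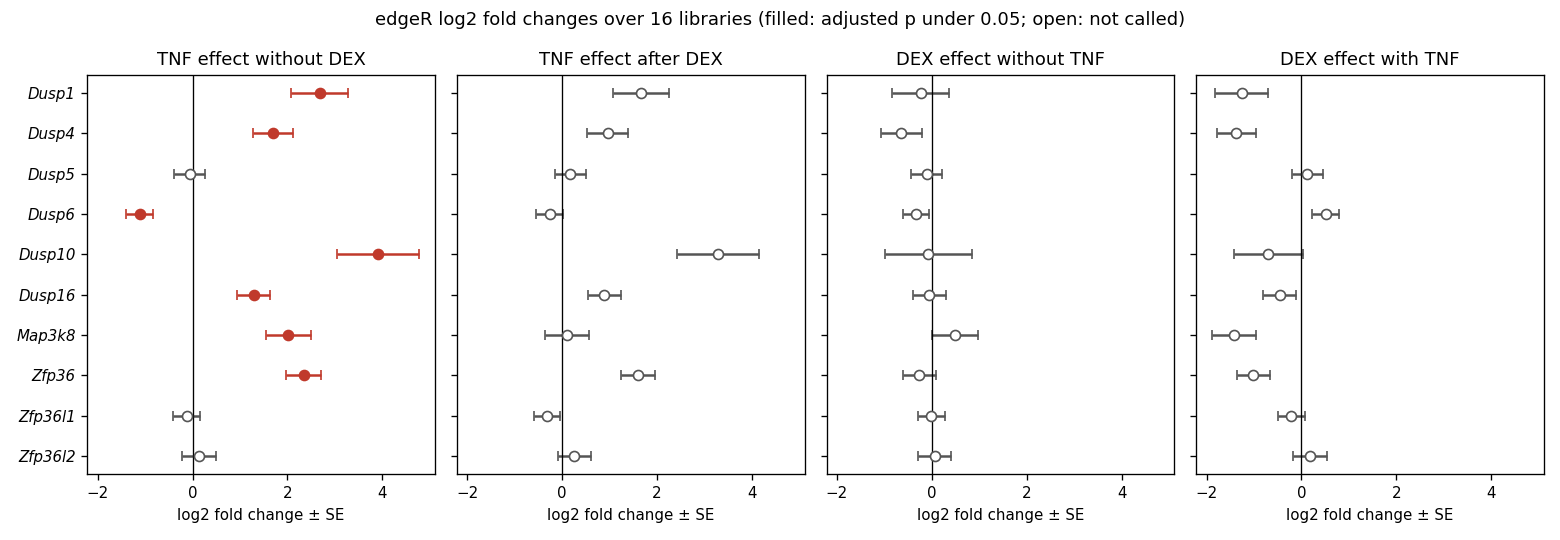
Log2 fold changes with their SE (bars) for the 10 members in the 4 comparisons that differ in a single injection, from the edgeR fit over 16 libraries; filled red points have an adjusted p under 0.05. Filled points appear only for TNF without DEX, 6 to the right of 0 and Dusp6 to the left, and Map3k8 lies at 2.02 there and at 0.10 for TNF after DEX.

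Whether DEX altered the TNF response was tested by the interaction, the TNF effect after DEX minus that after PBS. No member was called by edgeR (0 of 10, beside 0% of all tested genes), DESeq2 called 0 members, and 2 had an unadjusted p under 0.05. Map3k8 had the largest value, a log2 difference of -1.91 (SE 0.66, adjusted p = 0.784 in edgeR). For Dusp6 it was 0.84 (SE 0.40, adjusted p = 0.904 in edgeR), so that its drop of 1.11 without DEX stood beside a value of -0.27 after DEX. With DEX+TNF 3 and 4 left out these were -1.60 and 0.65. The data therefore do not establish a different TNF response after DEX for any member.

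Genes around the members in the same pathways were read from the same fit, mostly for TNF without DEX. There 12.5% of all tested genes were called, with a median log2 fold change of -0.03; the lists were not tested against other genes or against each other. Of the other MAPK phosphatases, 3 of 7 were tested and 1 rose, Dusp8, a phosphatase of JNK and p38 (log2 fold change 1.94, SE 0.62, adjusted p = 0.0496 in edgeR). The median of the 3 was -0.09. Of 35 MAPK cascade kinases, 34 were tested, 4 rose and 4 fell, with a median log2 fold change of 0.16. Mapk11 (p38 beta) rose by 3.48, Mapkapk3 by 2.06, Map2k3 by 1.30 and Map3k14, which encodes the kinase NIK, by 1.13. The 4 that fell were Rps6ka5, which encodes MSK1 (-2.05), Mknk2 (-1.13), Map2k6 (-1.05) and Mapk14, which encodes p38 alpha (-0.72). Other genes of p38 signaling did not pass, with values of -1.14 for Mapk12, -0.06 for Mapk13, 0.33 for Mapkapk2 and 0.47 for Rps6ka4.

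Map3k8 protein is held in a complex with p105, the product of Nfkb1, and with TNIP2 (ABIN-2), and is released by IKK. Of these 3 partner genes, Nfkb1 (1.84, SE 0.44, adjusted p = 0.0120 in edgeR) and Tnip2 (1.21, SE 0.27, adjusted p = 0.00799 in edgeR) rose with TNF, as Map3k8 did, and Ikbkb did not pass; their median was 1.21. For TNF after DEX, 0 of the 3 passed, beside 0.339% of all tested genes. Nfkb1 split by library, at 92.1, 97.5, 19.8 and 26.9 normalized CPM in DEX+TNF 1 to 4. Its range was 62.6 to 92.3 in PBS+TNF and 16.6 to 30.4 in DEX+PBS. Tnip2 was at 6.29, 7.20, 6.12 and 3.04 in DEX+TNF 1 to 4, with 6.17 to 10.6 in PBS+TNF and 3.21 to 3.55 in DEX+PBS. Of the 14 ERK feedback and output genes, 12 were tested and 2 rose, Ier3 (2.78, adjusted p = 0.0105 in edgeR) and Epha2 (2.01, adjusted p = 0.0419 in edgeR), with 0 lower. The other 10 did not pass, and the median of the 12 was 0.75.

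Most genes of the machinery that ZFP36 proteins recruit did not pass the test. Of 32 genes for deadenylation and mRNA decay, all tested, 1 rose, the decapping enzyme Dcp2 (1.25, SE 0.29, adjusted p = 0.0108 in edgeR), and 1 fell, the deadenylase Cnot6l (-0.63, SE 0.18, adjusted p = 0.0336 in edgeR), and their median was 0.11. Of 11 other regulators of AU-rich or immune mRNAs, 10 were tested and 2 rose: Zc3h12a, which encodes the endonuclease regnase-1 (1.66, adjusted p = 0.00274 in edgeR), and N4bp1 (2.37, adjusted p = 0.00851 in edgeR), with a median of 0.28 over the 10.

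Several known AU-rich targets of ZFP36 proteins were read beside them. Of 18 listed, 9 were too low to be tested, and Tnf, Cxcl1 and Plaur passed the filter on low values, 4 libraries above 0.757 CPM, only with the TNF groups counted (0, 0 and 3 such libraries among those without TNF), so the tested genes were bound to lean upward and their number is no support for the list as a whole. The 6 genes called, all higher, were Nos2, Tnf, Birc3, Cxcl1, Plaur and Ier3, and Fos (-0.32), Myc (0.65) and Vegfa (0.63) did not pass. Nos2, the inducible nitric oxide synthase, was at 0 to 1.12 normalized CPM in PBS+PBS and at 181 to 466 in PBS+TNF. Tnf itself was at 0 to 0.428 and at 8.48 to 21.3, and Birc3, an inhibitor of apoptosis, went from 9.42 ± 2.68 to 200.6 ± 33.6 (SD, n = 4). Of the 9 tested, 7 held a TATTTAT heptamer in the 3' UTR, with 8 in Tnf and 6 in Cxcl1, against the 3 in Zfp36. Of all tested protein-coding genes with a 3' UTR, 32.9% held a heptamer. The list was picked for AU-rich elements, so the higher share is not a result about these genes.

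**Figure D5:**
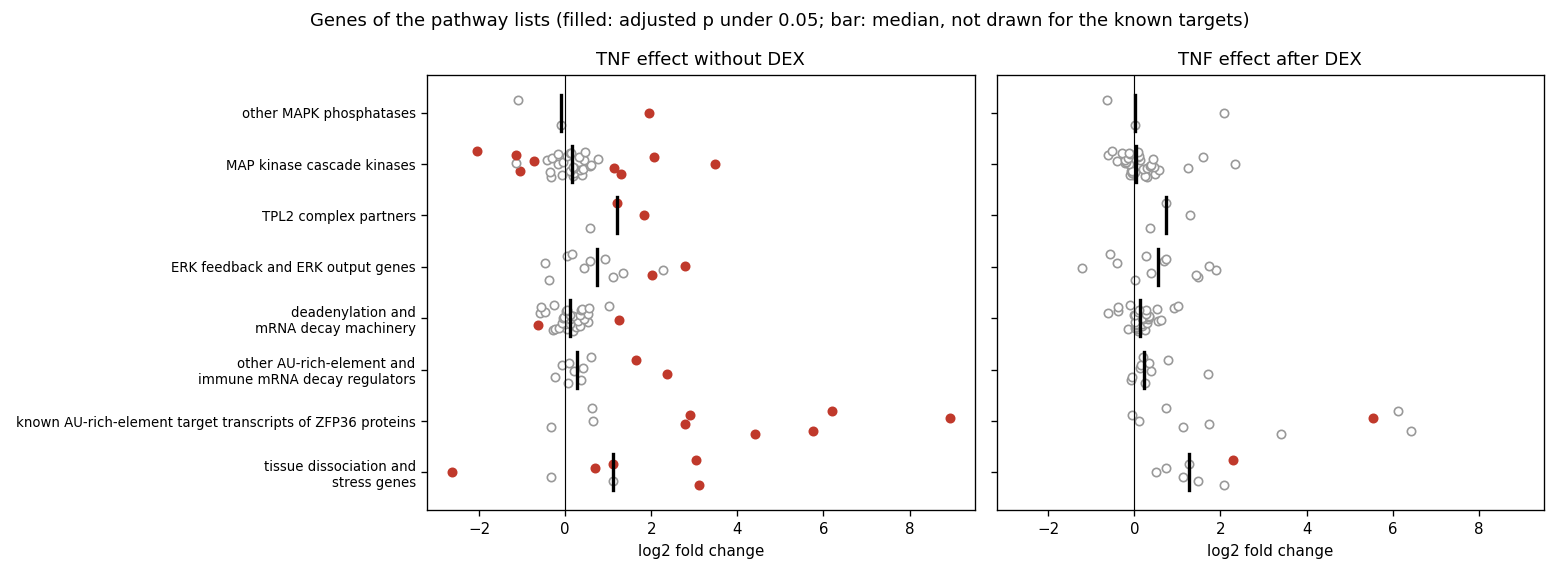
Log2 fold changes of the tested genes of 8 lists for TNF without DEX (left) and TNF after DEX (right), with the median of each list other than the known targets as a vertical bar and genes past an adjusted p of 0.05 filled in red. The decay machinery has a median of 0.11 on the left and 0.14 on the right, and on the right 2 genes are filled, Nos2 and Junb.

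After DEX, TNF raised 1 gene of these lists past the threshold beside Junb of the stress list, namely Nos2 (5.53, SE 1.14, adjusted p = 0.0491 in edgeR). Nos2 was at 103, 106, 0.306 and 20.2 normalized CPM in DEX+TNF 1 to 4 and at 0 to 2.60 in DEX+PBS, and Junb was at 143.7, 174.1, 33.8 and 21.0 and at 13.7 to 23.2. Both groups of each gene thus overlapped, DEX+TNF 3 for Nos2 and DEX+TNF 4 for Junb lying within the DEX+PBS range. Both calls were lost with the replicate block, with only the groups compared, and in 14 of the 16 fits that left out 1 library, since 0 genes passed there in this comparison; the fits without DEX+TNF 3 or 4 were the exceptions. The comparisons of DEX+PBS with PBS+PBS and of DEX+TNF with PBS+TNF had 0 calls in all 8 lists. The list of tissue dissociation and stress genes bears on early-response members such as Dusp1 and Zfp36, since dissociation of a tissue is known to induce such genes. Of its 9 genes 7 were tested, 4 rose with TNF (Junb 3.03, Atf3 3.12, Jun 1.12 and Ier2 0.69) and 1 fell (Fosb -2.62), with a median of 1.10. The part of dissociation in the member values was not tested.

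The genes most like 3 of the members across the 16 libraries, by Pearson's r of log2 CPM over 11808 genes, are given as a description, since the TNF groups alone can drive such likeness. For Zfp36 they were Tat (r = 0.980), Steap4 (0.977) and Rel (0.974). For Dusp1 they were Tut7 (0.943), Ppp1r15a (0.942) and Slk (0.940). For Map3k8 they were Rbm45 (0.918), Ankrd28 (0.897) and Prpf4 (0.886). Rbm45 had the same order of groups as Map3k8, with a mean of 8.32 normalized CPM in PBS+PBS, 22.8 in PBS+TNF, 8.61 in DEX+PBS and 11.4 in DEX+TNF. Among the members themselves, the closest pairs were Dusp10 with Dusp16 (r = 0.933), Dusp16 with Zfp36 (0.907) and Dusp1 with Zfp36 (0.906).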

How the data were processed

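The deposited table held raw counts, made by the authors per Ensembl gene and library from stranded mRNA libraries of sorted Paneth cells. The labels name FastQC 0.12, STAR 2.7.10a and DESeq2, and the assembly mm39 (GRCm39). The counting program, its use of strand and its handling of reads that match several genes are not given in the sources used here, and the methods give another STAR release than the labels. The study describes its samples as cells of individual mice. Each group is stated to hold biological replicates, and p-values measure the spread between these libraries.

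Groups came from the labels. Genes were filtered with filterByExpr, scaled with TMM factors (0.418 to 1.50) and fitted with a mean per group over 16 libraries by the robust quasi-likelihood test of edgeR 4.0.16 (R 4.3.3). P-values of the 5 contrasts were each adjusted by the Benjamini-Hochberg method over 11809 genes. SE is the size of a log2 fold change divided by the square root of F. The procedure was tested on simulated counts. Levels per kb used the union of exons in GENCODE M39, which held 54749 of 55414 identifiers. The 665 others carried 0.00519% of the counts.

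The members and lists were chosen with earlier results of these data known. Named were the 10 members, Nfkbia, at most the 4 genes with the lowest adjusted p of each list among those called, and the 3 genes most like Dusp1, Map3k8 and Zfp36. Cxcl1, Plaur, Ikbkb, Map3k14, Map2k6, Mapk12, Mapk13, Mapk14, Mapkapk2, Rps6ka4, Mknk2, Ier2, Fos, Myc, Vegfa and the cell markers were named after their values were seen. The alternatives tried were DESeq2 1.42.0, scaling by upper-quartile or median-of-ratios factors or without the alpha-defensin genes, a minimum mean of 5 CPM, no filter, a fit of the groups compared alone, the replicate number as a block, an adjusted p under 0.01 and leaving out libraries.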

Additional observations from a re-analysis of the deposited data

Results flagged for a closer look

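In 3 of 40 sets of 4 libraries (10 genes in 4 groups), a single library lay far from the other 3 by Dixon's test, where chance gives about 1 in 20. Dusp1 was at 19.65 normalized CPM in PBS+TNF 2, against 11.4 to 12.5 in the other PBS+TNF libraries. Map3k8 was at 1.547 normalized CPM in PBS+TNF 3, from 22 reads, against 2.77 to 3.01 in the other PBS+TNF libraries. Zfp36l1 was at 30.32 normalized CPM in DEX+TNF 3, against 37.3 to 38.2 in the other DEX+TNF libraries. The calls of Dusp1 and Map3k8 for TNF without DEX held without each of these libraries.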

How the results depend on the processing

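The 7 members called for TNF without DEX kept their direction in 172 of 172 alternative values and their call in 167. The 5 lost calls, those of Dusp16, Dusp4 and Dusp6 without single libraries, are given above. The number called was 5 to 7 when a library was left out, 4 with a mean of at least 5 CPM, which left 7 members in the test, and 3 at an adjusted p under 0.01. Over all genes, 1476 calls became 570 at an adjusted p under 0.01, 916 without PBS+PBS 1 and 961 without PBS+PBS 2. Upper-quartile factors shifted the median of all genes from -0.03 to -0.15. For DEX with TNF, DESeq2 called 1 member, and 40 calls over all genes became 274 with DESeq2, 16 with the replicate block, 0 with only the groups compared or at an adjusted p under 0.01, and 0 to 102 when a library was left out. For TNF after DEX, members called were 2 with DESeq2, 0 to 3 when a library was left out and 5 with DEX+TNF 3 and 4 left out, and 40 calls over all genes became 259 with DESeq2, 6 with no filter, 0 with the replicate block, with only the groups compared or at an adjusted p under 0.01, 0 to 362 when a library was left out and 1286 with both left out. DESeq2 called 7 genes for DEX without TNF (1 with edgeR, 0 to 2 when a library was left out, 2 with both left out) and 9 for the interaction (0 with edgeR, 0 to 1 when a library was left out). The causes were not tested.

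Pairing by replicate number was not established: of 24 same-numbered pairs, 12 correlated above 0.1 in their deviations from the group means (r from -0.37 to 0.50), and 9 of 16 libraries were closest to their own number. With the replicate block, 7 members were called for TNF without DEX and 0 in the other comparisons.

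No called value changed sign. Of values that had not passed the test, the replicate block turned the DEX effect without TNF of Zfp36l1 to 0.0086 and of Zfp36l2 to -0.0437. With DEX+TNF 3 and 4 left out, Dusp10 became 0.24 for DEX with TNF and 0.3428 for the interaction, and Dusp16 0.1535 and 0.2032. The others changed sign only without a single library, with these ranges of log2 values. For TNF without DEX they were -0.30 to 0.0566 for Dusp5, -0.393 to 0.0287 for Zfp36l1 and -0.1209 to 0.3707 for Zfp36l2. For DEX without TNF they were -0.5446 to 0.0296 for Dusp1, -0.7181 to 0.2196 for Dusp10, -0.1957 to 0.0408 for Dusp16, -0.4426 to 0.0528 for Zfp36, -0.2657 to 0.1139 for Zfp36l1 and -0.1633 to 0.2919 for Zfp36l2. For DEX with TNF they were -0.1733 to 0.3178 for Dusp5 and -0.0295 to 0.4381 for Zfp36l2. For TNF after DEX they were -0.126 to 0.3734 for Dusp5 and -0.1876 to 0.3645 for Map3k8. For the interaction they were -0.0649 to 0.4624 for Dusp5, -1.2518 to 0.0232 for Dusp10, -0.3548 to 0.0672 for Zfp36l1 and -0.1157 to 0.3851 for Zfp36l2.

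Depth limits Map3k8 and Dusp10 most, with group totals of reads as low as 35 in PBS+PBS for Map3k8 and 30 in DEX+PBS for Dusp10, followed by Dusp4 with 79 in DEX+PBS.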
